A study of Rattus norvegicus with 23 samples.

Results

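The 6 genes described here encode the fibrillar collagen chains Col1a1, Col1a2 and Col3a1 and the matrix glycoproteins Fn1, Postn and Sparc. They were taken from a list of identifiers drawn up with earlier results of these data known, with no threshold on measured values, and all 6 of 6 were found among the 32545 gene identifiers of the count table. The symbols were given with the list of identifiers, ENSRNOG00000003897 (Col1a1), ENSRNOG00000011292 (Col1a2), ENSRNOG00000003357 (Col3a1), ENSRNOG00000014288 (Fn1), ENSRNOG00000012660 (Postn) and ENSRNOG00000012840 (Sparc). All 6 passed the filter on low counts in both fits used. RNA-seq counts covered 23 libraries in 7 groups of adult female rats of WT genotype. In 4 groups the median nerve had been cut, leaving a gap of 8 mm, and repaired. Nerves labelled MIV carried a muscle-in-vein graft of 10 mm, a vein conduit filled with skeletal muscle, and were collected at day 7 (n = 3) and day 3 (n = 3). Nerves labelled EV were collected at day 7 (n = 3) and day 3 (n = 3), and their treatment label names the repair after the cut but not MIV. The labels do not spell out EV, and the study's design text gives a muscle-in-vein graft as the repair without setting EV nerves apart, so what the EV nerves received is not stated and a difference between MIV and EV cannot be read as that of muscle against none. The other groups were untreated day 0 tissues, namely adductor muscle (n = 3), epigastric vein (n = 3) and median nerve (n = 5). No label says whether the libraries came from separate animals or from pooled tissue, so the spread that p-values measure is that between these samples and may be technical.

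Collagen fibrils give connective tissue its tensile strength. Type I collagen is assembled from the chains encoded by Col1a1 and Col1a2, and type III collagen, encoded by Col3a1, accompanies it in pliable tissues and in young repair tissue. Fibronectin, encoded by Fn1, is laid down early in wounds and binds cells through integrins. Periostin, encoded by Postn, and the product of Sparc are matricellular proteins that bind collagen. In peripheral nerve these proteins are found in the connective tissue sheaths, among other places. Fibroblasts are a well known source of them but not the sole source, and the cells that made the RNA were not identified here. In bulk tissue, a change in the number of cells of a type and a change in RNA per cell cannot be told apart.

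Promoter sequence was available from RefSeq (GRCr8) for 3 of the 6 genes. All 3 are shown, chosen by that availability and not by their levels. In the results below Postn was low in healthy nerve and high after repair, and Sparc was high in both. Col1a2 was not called between the days, nor were Col1a1, Fn1 and Sparc. Each run gives, 5′ to 3′ on the strand of the gene, the 250 bases before the RefSeq start, at chr4:33518307-33518556 on the plus strand for Col1a2, chr2:140677811-140678060 on the plus strand for Postn and chr10:40038817-40039066 on the minus strand for Sparc. Capitals mark matches, on either strand, to the letters TATAAA of the TATA box, to the CCAAT box by its own letters, or to the GC box letters GGGCGG.
Col1a2: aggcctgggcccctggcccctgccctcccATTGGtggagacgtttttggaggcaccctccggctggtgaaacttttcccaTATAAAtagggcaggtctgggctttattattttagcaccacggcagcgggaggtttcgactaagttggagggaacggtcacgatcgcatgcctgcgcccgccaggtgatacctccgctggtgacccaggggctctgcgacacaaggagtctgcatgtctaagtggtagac
Postn: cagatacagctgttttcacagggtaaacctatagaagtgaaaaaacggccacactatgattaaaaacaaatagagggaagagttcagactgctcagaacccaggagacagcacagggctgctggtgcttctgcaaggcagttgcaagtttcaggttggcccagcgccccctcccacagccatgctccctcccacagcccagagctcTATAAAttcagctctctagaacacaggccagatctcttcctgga
Sparc: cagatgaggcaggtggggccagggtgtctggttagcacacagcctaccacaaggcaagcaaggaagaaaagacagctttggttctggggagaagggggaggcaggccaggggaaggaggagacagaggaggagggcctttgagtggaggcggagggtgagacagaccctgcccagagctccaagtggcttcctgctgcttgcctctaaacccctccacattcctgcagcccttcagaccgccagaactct
The match to TATAAA began 44 bases before the RefSeq start of Postn and 170 bases before that of Col1a2. CCAAT was matched on the opposite strand of the Col1a2 window, 221 bases before the start. These matches did not overlap each other. None of these strings was found in the Sparc window, which says only that those letters are not in it. The RefSeq start is an annotated one and was not checked against a measured start of transcription. A window may thus include transcribed bases, and the distances for Postn and Col1a2 cannot be compared as distances from where transcription begins. Among 33469 RefSeq windows of the same length, on either strand, 12.9% held the TATA box letters, 34.0% those of the CCAAT box and 30.5% those of the GC box.

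Library totals ranged from 12504035 to 17314324 counts. Levels are given as CPM, the counts scaled to the library total and to TMM factors of the 23 libraries; they are not per length and are compared within a gene only. Some libraries stood apart for these genes. Healthy nerve replicate 5 had the highest CPM of all 6 genes among the healthy nerves, EV day 3 replicate 1 had the highest Col3a1, Postn and Sparc of the day 3 nerves, and MIV day 7 replicate 2 had the lowest CPM of all 6 in its group. Muscle-enriched genes, those called and over 1 log2 unit higher in healthy muscle than in both other healthy tissues, took 24.8, 17.9 and 37.4% of the counts in MIV day 7 replicates 1 to 3, against 17.0, 17.1 and 16.1% in EV day 7 replicates 1 to 3. Vein-enriched genes took 7.86, 6.02 and 5.07% in those MIV libraries, against 9.60, 9.21 and 9.79% in those EV libraries. In the healthy tissues, the mean muscle-enriched share was 80.4% in muscle, 16.5% in vein and 15.9% in nerve. The mean vein-enriched share was 0.799%, 17.9% and 3.71% in the same order. A share near 16% is thus also found in tissue without a graft. By this rule Postn itself was muscle-enriched and Sparc nerve-enriched. Defining markers of the labelled tissues were not checked by name, because other identifiers could not be paired with symbols here.

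The repaired nerves were first set against healthy median nerve, to show how far the matrix genes departed from uninjured tissue. Col1a1, Col1a2, Fn1 and Postn rose in all 4 repaired groups, Col3a1 rose in 3 of them, and Sparc was not called in any. The threshold was an adjusted p under 0.05 in edgeR's quasi-likelihood test. In MIV day 7 nerves 5 of 6 were called higher, beside 29.2% of all 15954 genes tested. In EV day 7 nerves 5 of 6 were called higher, beside 24.1% of all genes. In MIV day 3 nerves 4 of 6 were, beside 30.9%, and in EV day 3 nerves 5 of 6, beside 30%. None of the 6 was called lower in these groups, where 25.4%, 24%, 30.6% and 30.7% of all genes were in the same order. The median log2 fold change of the 6 genes was 1.68, 1.85, 1.51 and 1.54 in MIV day 7, EV day 7, MIV day 3 and EV day 3 nerves, beside 0.05, 0.00, 0.01 and -0.01 over all genes. The 4 comparisons share the 5 healthy nerve libraries.

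**Figure D1:**
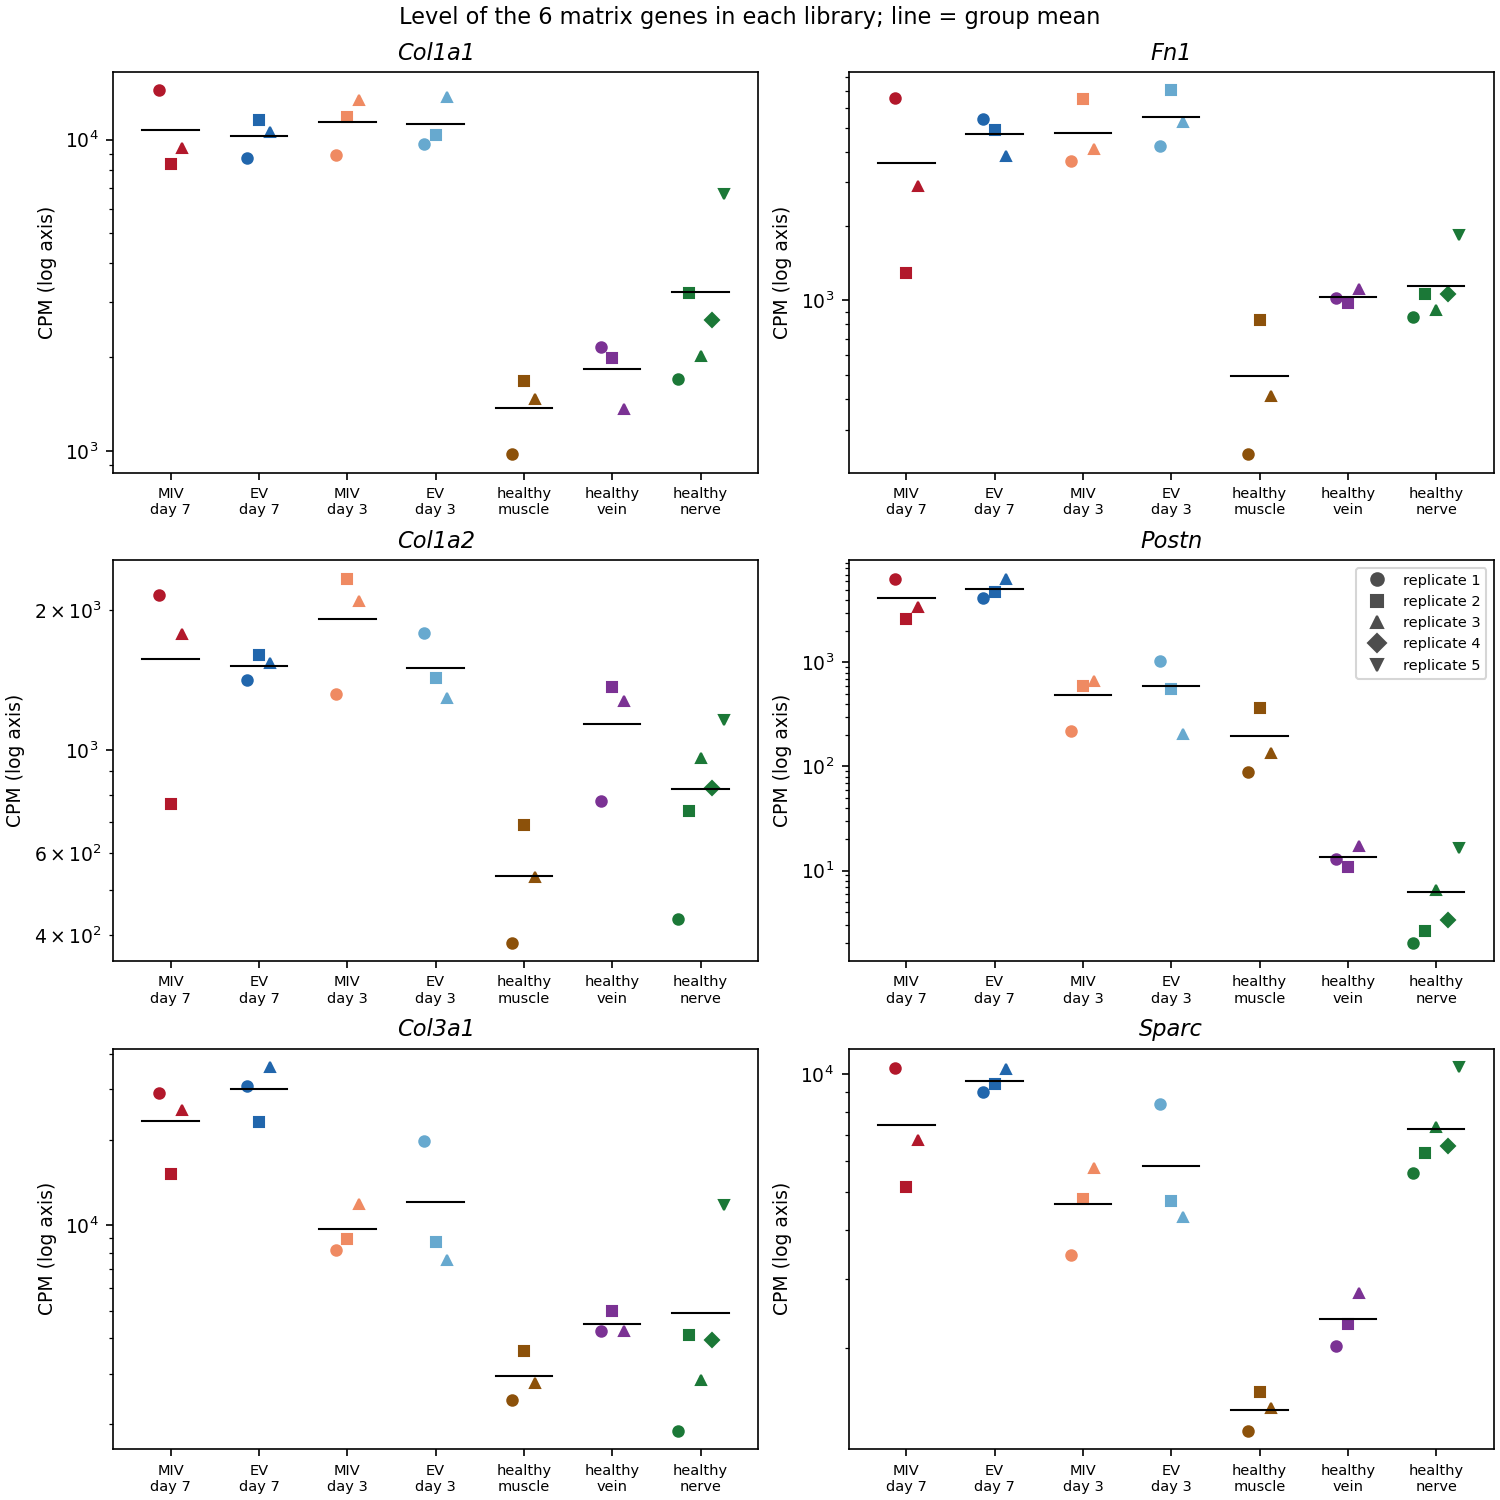
Each panel plots 1 gene, with every library as a point (shape for replicate number), the 7 groups on the horizontal axis, CPM on a logarithmic vertical axis and a line at the group mean. Postn spans from 2.03 CPM in a healthy nerve to 6395 CPM in an MIV day 7 nerve, whereas the Sparc points of repaired and healthy nerve overlap.

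Among the collagens, Col1a1 stood at 14372, 8359 and 9376 CPM in MIV day 7 nerves and at 8731, 11560.1 and 10552 CPM in EV day 7 nerves. At day 3 it stood at 8943, 11817 and 13374 CPM in MIV nerves and at 9639, 10335 and 13687 CPM in EV nerves, against 1707, 3210.0, 2013, 2629 and 6686 CPM in healthy nerve. All 12 repaired nerves lay above all 5 healthy nerves. The log2 fold change over healthy nerve was 1.72 ± 0.35 (SE) in MIV day 7 nerves (edgeR adjusted p = 0.000354), 1.66 ± 0.35 in EV day 7 nerves (adjusted p = 0.000582), 1.81 ± 0.35 in MIV day 3 nerves (adjusted p = 0.000166) and 1.79 ± 0.35 in EV day 3 nerves (adjusted p = 0.000186). The 4 folds ran from 3.16 in EV day 7 to 3.50 in MIV day 3 nerves.

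Col1a2, the partner chain of type I collagen, stood at 2157, 763 and 1775 CPM in MIV day 7 nerves and at 1411, 1603 and 1538 CPM in EV day 7 nerves. At day 3 it stood at 1318, 2334 and 2095 CPM in MIV nerves and at 1786, 1424 and 1292 CPM in EV nerves, against 432, 740.0, 959, 827 and 1158 CPM in healthy nerve. MIV day 7 replicate 2 was the only repaired nerve inside the healthy range. The log2 fold changes were 0.93 ± 0.32, 0.88 ± 0.32, 1.22 ± 0.31 and 0.87 ± 0.32 (SE) in MIV day 7, EV day 7, MIV day 3 and EV day 3 nerves (edgeR adjusted p = 0.0182, 0.0269, 0.00245 and 0.0233). The call depended on single libraries in all groups but MIV day 3. It was lost in MIV day 7 nerves without their replicate 1 (edgeR adjusted p = 0.142) or 3 (0.0622) and in a fit of the 2 groups alone (0.0645). In EV day 7 nerves it was lost without their replicate 2 (edgeR adjusted p = 0.0731) or 3 (0.0640) or healthy nerve replicate 1 (0.0625) or 2 (0.0525). In EV day 3 nerves it was lost without their replicate 1 (edgeR adjusted p = 0.0956) or healthy nerve replicate 1 (0.0557).

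Col3a1, the type III collagen chain, stood at 29121, 15139 and 25382 CPM in MIV day 7 nerves and at 30922, 23129.8 and 36033 CPM in EV day 7 nerves, against 1893, 4123, 2853, 3938 and 11754 CPM in healthy nerve. Each day 7 nerve lay above each healthy nerve. The log2 fold change was 2.24 ± 0.44 (SE) in MIV day 7 nerves (edgeR adjusted p = 0.000285) and 2.61 ± 0.44 in EV day 7 nerves (adjusted p = 8.06e-05). At day 3 the values were 8177, 8948 and 11907 CPM in MIV nerves and 19828, 8697 and 7533 CPM in EV nerves, and healthy nerve replicate 5 lay within both ranges. The change was 0.98 ± 0.44 in MIV day 3 nerves, which was not called (edgeR adjusted p = 0.0603), and 1.29 ± 0.44 in EV day 3 nerves, which was (adjusted p = 0.0157).

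These Col3a1 results leaned on healthy nerve replicate 5 and EV day 3 replicate 1. Without healthy nerve replicate 5 the MIV day 3 change was 1.59 and was called (edgeR adjusted p = 0.000638), and the changes in MIV day 7, EV day 7 and EV day 3 nerves were 2.85, 3.23 and 1.90. The MIV day 3 change was also called with DESeq2 (adjusted p = 0.0439) and by edgeR with TMM factors of the genes outside the muscle-enriched set (adjusted p = 0.0440). Without EV day 3 replicate 1 the EV day 3 change was 0.72 and was not called (edgeR adjusted p = 0.192), nor was it in a fit of the 2 groups alone (adjusted p = 0.0707).

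Among the glycoproteins, Fn1 stood at 6569, 1294 and 2916 CPM in MIV day 7 nerves and at 5406, 4876 and 3845 CPM in EV day 7 nerves. At day 3 it stood at 3672, 6518 and 4110.0 CPM in MIV nerves and at 4222, 7066 and 5252 CPM in EV nerves, against 860.1, 1062, 918, 1057 and 1836 CPM in healthy nerve. The only repaired nerve inside the healthy range was again MIV day 7 replicate 2. The log2 fold changes were 1.65 ± 0.41, 2.04 ± 0.41, 2.06 ± 0.41 and 2.27 ± 0.41 (SE) in MIV day 7, EV day 7, MIV day 3 and EV day 3 nerves (edgeR adjusted p = 0.00222, 0.000444, 0.000261 and 0.000100). Without MIV day 7 replicate 1, the highest of its group, the MIV day 7 change was 0.88 and was not called (edgeR adjusted p = 0.0706).

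Postn had the widest span of the 6. It stood at 6395, 2606 and 3404 CPM in MIV day 7 nerves and at 4202, 4707 and 6306 CPM in EV day 7 nerves. At day 3 it stood at 219, 591 and 666 CPM in MIV nerves and at 1024, 560.0 and 206 CPM in EV nerves. Healthy nerve held 2.03, 2.65, 6.46, 3.38 and 16.5 CPM, from 33, 48, 92, 55 and 233 counts. Every repaired nerve lay above every healthy nerve, the lowest at 206 CPM and the highest healthy one at 16.5 CPM. The log2 fold changes were 9.39 ± 0.79, 9.68 ± 0.80, 6.31 ± 0.70 and 6.59 ± 0.71 (SE) in MIV day 7, EV day 7, MIV day 3 and EV day 3 nerves (edgeR adjusted p = 2.19e-08, 1.90e-08, 3.37e-07 and 2.26e-07). These are folds of 669, 820.5, 79.5 and 96.6. Without healthy nerve replicate 5, which held the most Postn of the 5, the log2 fold changes were 10.15, 10.45, 7.09 and 7.36, and without EV day 3 replicate 1 the EV day 3 change was 5.95.

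Sparc stood at 10353, 5176 and 6786 CPM in MIV day 7 nerves and at 9016, 9470.3 and 10345 CPM in EV day 7 nerves, against 5593, 6307, 7359, 6552 and 10457 CPM in healthy nerve. All EV day 7 libraries lay inside the healthy range, and MIV day 7 replicate 2 lay below it. At day 3 the values were 3457, 4809 and 5770.3 CPM in MIV nerves and 8419, 4765 and 4339.7 CPM in EV nerves, and 4 of these 6 libraries lay below every healthy nerve. The log2 fold changes were 0.04 ± 0.27, 0.41 ± 0.26, -0.63 ± 0.27 and -0.31 ± 0.27 (SE) in MIV day 7, EV day 7, MIV day 3 and EV day 3 nerves (edgeR adjusted p = 0.917, 0.217, 0.0511 and 0.327). The MIV day 3 value lay next to the threshold. It was called lower with DESeq2 (adjusted p = 0.0217) and by edgeR in a fit of the 2 groups alone (adjusted p = 0.0453), with DESeq2's size factors (0.0472), without healthy nerve replicate 1 (0.0378) and without MIV day 3 replicate 3 (0.0390).

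Day 7 was then compared with day 3 within MIV and within EV nerves, to follow the matrix genes over the first week. Postn rose in both, Col3a1 rose in EV nerves, and the other genes were not called. In MIV nerves 1 of 6 was called higher, beside 7.39% of all 15036 genes tested, and in EV nerves 2 of 6 were, beside 9.41% of all genes. None of the 6 was called lower, where 8.09% of all genes in MIV and 10.2% in EV nerves were. The median log2 change of the 6 was 0.31 in MIV and 0.38 in EV nerves, beside 0.06 and 0.01 over all genes. Both comparisons come from 1 fit of the 12 repaired libraries, which share an estimate of spread.

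Postn changed by 3.09 ± 0.63 (SE) on the log2 scale in MIV nerves (edgeR adjusted p = 0.0106) and by 3.09 ± 0.63 in EV nerves (adjusted p = 0.00843), folds of 8.53 and 8.54. Each day 7 library lay above each day 3 library in both. Over the alternative settings tried, the change had a range of 2.61 to 3.37 in MIV nerves and of 2.68 to 3.75 in EV nerves, and it was called under each of them. The highest EV value, 3.75, was that without EV day 3 replicate 1.

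Col3a1 differed by 1.28 ± 0.41 (SE) in MIV nerves (edgeR adjusted p = 0.0569) and by 1.33 ± 0.41 in EV nerves (adjusted p = 0.0440), again with each day 7 library above each day 3 library. In MIV nerves 2 of the 6 genes, Col3a1 and Postn, had no overlap between the days, beside 15.1% of all genes, and in EV nerves 3, Col3a1, Postn and Sparc, beside 22.4%. No member had all day 7 libraries below all day 3 libraries, beside 16.4% of all genes in MIV and 23.4% in EV nerves. The Col3a1 change passed the threshold in EV and not in MIV nerves, but the difference between both changes was -0.05 ± 0.57 (edgeR adjusted p = 0.995). The EV call was kept only when the library left out was EV day 3 replicate 1 or MIV day 7 replicate 1 or 2; the other 9 omissions gave an edgeR adjusted p of 0.0508 to 0.150. It was also lost with all 23 libraries in the fit (edgeR adjusted p = 0.0582) and with the 2 groups alone (0.0558). The MIV change was called with DESeq2 (adjusted p = 0.00758) and by edgeR without MIV day 7 replicate 2 (adjusted p = 0.0218), EV day 3 replicate 1 (0.0238) or EV day 3 replicate 3 (0.0425).

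Sparc differed by 0.69 ± 0.34 (SE) on the log2 scale in MIV and by 0.73 ± 0.34 in EV nerves, neither of which was called (edgeR adjusted p = 0.185 and 0.154). Without EV day 3 replicate 1 the EV change was 1.10 and was called (edgeR adjusted p = 0.0486). Col1a1 differed by -0.07 ± 0.27 in MIV and -0.11 ± 0.27 in EV nerves, with 95% intervals of -0.67 to 0.52 and -0.71 to 0.49. Col1a2 differed by -0.27 ± 0.36 in MIV and 0.03 ± 0.36 in EV nerves, with intervals of -1.06 to 0.52 and -0.76 to 0.82. Fn1 differed by -0.38 ± 0.49 in MIV and -0.21 ± 0.49 in EV nerves, with intervals of -1.47 to 0.71 and -1.30 to 0.88. A 2-fold change between the days lay outside both intervals of Col1a1 and the EV interval of Col1a2, and inside the MIV interval of Col1a2 and both intervals of Fn1.

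**Figure D2:**
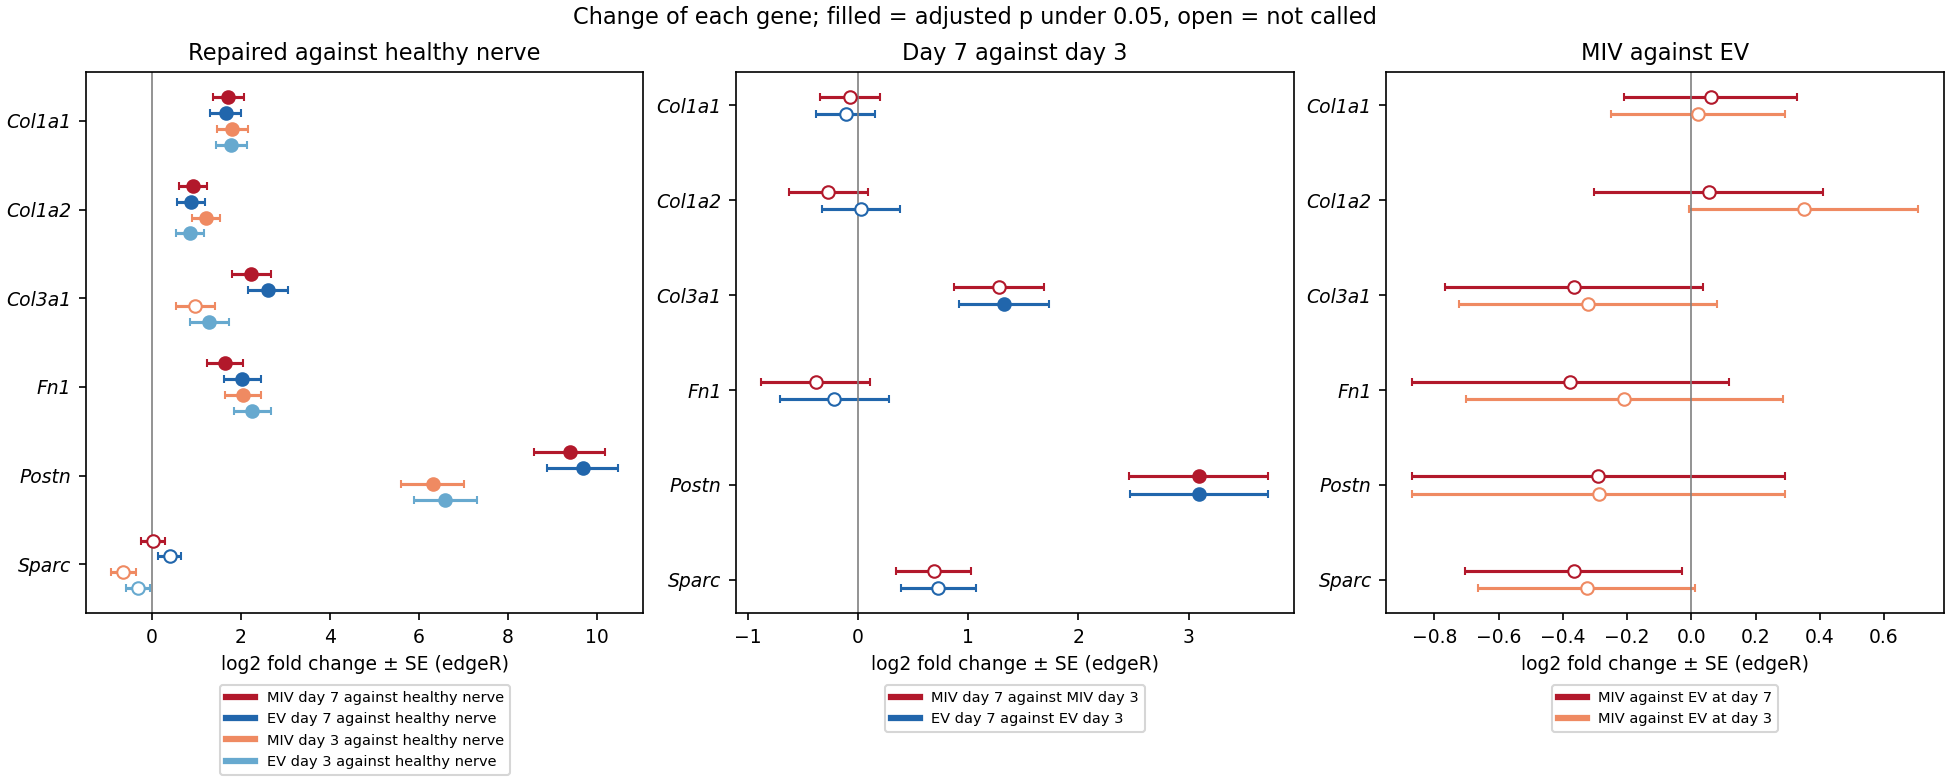
Points give the log2 fold change of each gene with its SE on the horizontal axis, for repaired against healthy nerve, day 7 against day 3 and MIV against EV, and filled points have an adjusted p under 0.05. Postn stands farthest right in the first and second panels, at 9.39 and 3.09 for MIV day 7, and every point of the MIV against EV panel is open.

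The balance between type III and type I collagen transcripts was followed as the ratio of Col3a1 counts to the sum of Col1a1 and Col1a2 counts within each library, which does not depend on scaling to other genes. It is a ratio of counts, not of molecules, since no correction for transcript length was made. The ratio was 1.76, 1.66 and 2.28 in MIV day 7 nerves, against 0.797, 0.632 and 0.770 in MIV day 3 nerves. In EV nerves it was 3.05, 1.76 and 2.98 at day 7, against 1.74, 0.740 and 0.503 at day 3. The day 7 libraries lay above the day 3 libraries without overlap in both, by 1.37 on the log2 scale in MIV and 1.54 in EV nerves (two-sided exact permutation p = 0.1 for each, the smallest that 3 against 3 libraries can give). Healthy nerve held ratios of 0.885, 1.04, 0.960, 1.14 and 1.498, below all 6 day 7 nerves and above all 3 MIV day 3 nerves.

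Against healthy nerve the log2 ratio differed by 0.79 in MIV day 7, 1.21 in EV day 7 and -0.58 in MIV day 3 nerves, each without overlap (two-sided exact permutation p = 0.0357 for each, the smallest that 3 against 5 libraries can give). In EV day 3 nerves it differed by -0.33, with overlap (two-sided exact permutation p = 0.464), and by -0.83 without EV day 3 replicate 1, 0.06 without replicate 3, -0.22 without replicate 2 and -0.21 without healthy nerve replicate 5, so its direction rested on 1 library. MIV and EV nerves differed by -0.42 at day 7 and -0.25 at day 3 (two-sided exact permutation p = 0.3 and 0.9). The day 7 ratio was lower in the MIV nerve in 3 of 3 pairs of the same number, though no label pairs them. The day 7 difference was -0.68 without EV day 7 replicate 2 and -0.28 without EV day 7 replicate 1. The day 3 difference turned to 0.26 without EV day 3 replicate 1 and was -0.64 without EV day 3 replicate 3 and -0.14 without MIV day 3 replicate 2. After Benjamini-Hochberg adjustment over the 20 ratio comparisons made, none passed 0.05, and the lowest adjusted p of these exact tests was 0.159. The group sizes fixed that outcome. With a smallest possible p of 0.0357 or 0.1 in each exact test, none of the 20 could pass after adjustment. The adjusted values therefore do not tell whether the ratios differ.

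Within type I collagen, the ratio of Col1a1 to Col1a2 counts was 6.66, 10.95 and 5.28 in MIV day 7 nerves and 6.19, 7.21 and 6.86 in EV day 7 nerves. At day 3 it was 6.78, 5.06 and 6.39 in MIV nerves and 5.40, 7.26 and 10.6 in EV nerves. The untreated tissues held 2.53, 2.44 and 2.74 in muscle, 2.78, 1.46 and 1.07 in vein and 3.95, 4.34, 2.10, 3.18 and 5.77 in nerve. The mean log2 ratio differed from that of healthy nerve by 0.99, 0.88, 0.72 and 1.03 in MIV day 7, EV day 7, MIV day 3 and EV day 3 nerves (two-sided exact permutation p = 0.0714, 0.0357, 0.0714 and 0.0714, each 0.159 after adjustment). Of the 4 groups, EV day 7 alone did not overlap with healthy nerve, in which replicate 5 had the highest ratio.

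**Figure D3:**
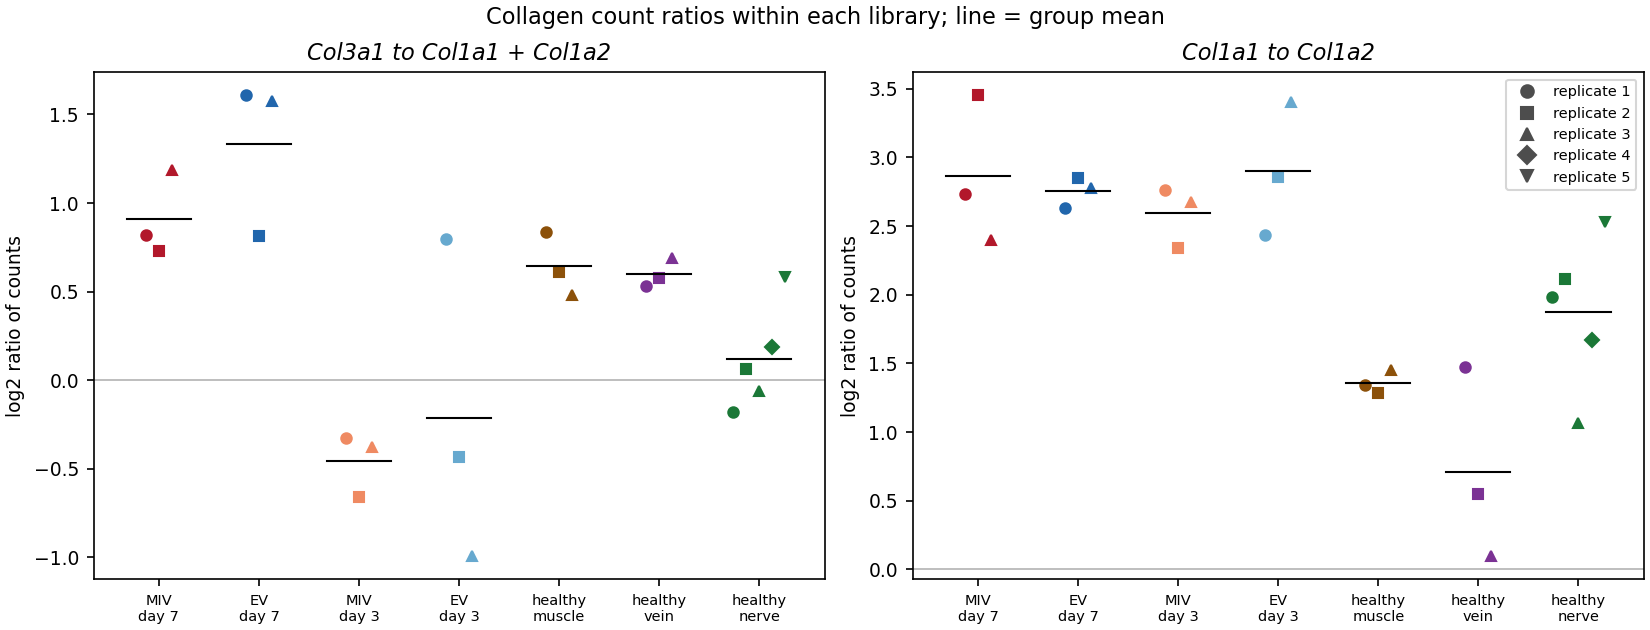
Within-library log2 ratios of Col3a1 to Col1a1 plus Col1a2 counts (left) and of Col1a1 to Col1a2 counts (right) are plotted per library, with a line at each group mean. On the left the 6 day 7 nerves lie between 0.73 and 1.61, above the 3 MIV day 3 nerves at -0.66 to -0.33. EV day 3 replicates 1 to 3 lie at 0.80, -0.44 and -0.99, the first of them inside the day 7 range. On the right all repaired nerves lie at 2.34 or higher.

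MIV was compared with EV nerves at each day. None of the 6 genes was called at either day. None had MIV and EV libraries without overlap, beside 9.92% of all genes above and 11.7% below at day 7 and 7.17% above and 4.05% below at day 3. In the fit of the 12 repaired libraries without a block, edgeR called no gene of the 15036 tested at either day (background 0% in each direction), while 2514 genes at day 7 and 775 at day 3 had an unadjusted p under 0.05, none of them among the 6. DESeq2 called 868 genes at day 7 and 246 at day 3, again none of the 6. The background depended on the fit, since edgeR called 1135 genes at day 7 and 160 at day 3 with all 23 libraries in the fit. Without MIV day 7 replicate 2 it called 688 and 70. A block on the number within each day gave 81 and 4. None of the 6 genes was called in any of these fits.

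At day 7 the log2 difference was 0.06 ± 0.27 (SE) for Col1a1, with a 95% interval of -0.54 to 0.66, and 0.05 ± 0.36 for Col1a2, with an interval of -0.73 to 0.84. It was -0.37 ± 0.40 for Col3a1 (-1.25 to 0.52), -0.38 ± 0.49 for Fn1 (-1.47 to 0.72), -0.29 ± 0.58 for Postn (-1.57 to 0.996) and -0.37 ± 0.34 for Sparc (-1.11 to 0.38). The edgeR adjusted p ran from 0.584 for Sparc to 0.949 for Col1a2. Day 7 libraries of the same replicate number were also compared, though no label pairs them. Col3a1 was lower in the MIV nerve in 3 of 3 pairs, Fn1, Postn and Sparc each in 2, and Col1a1 and Col1a2 in 2 and 1. With the number as a block within each day the Col3a1 difference was -0.41 (edgeR adjusted p = 0.626). A 2-fold difference between MIV and EV at day 7 was outside the interval of Col1a1 and Col1a2 and inside that of the other 4.

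At day 3 the log2 difference was 0.02 ± 0.27 (SE) for Col1a1 (-0.57 to 0.62), 0.35 ± 0.36 for Col1a2 (-0.44 to 1.14) and -0.32 ± 0.40 for Col3a1 (-1.21 to 0.57). It was -0.21 ± 0.49 for Fn1 (-1.30 to 0.88), -0.29 ± 0.58 for Postn (-1.57 to 0.998) and -0.33 ± 0.34 for Sparc (-1.07 to 0.42), each of the 6 with an edgeR adjusted p of 1. Here a 2-fold difference was outside the interval of Col1a1 alone. Over both days together none of the 6 was called, beside 1.42% of all genes called higher and 0.12% lower. That background rested on single libraries. The number of genes called, 232, was 0 when replicate 1 or replicate 3 of either EV group was left out, and 2 and 64 without replicate 2 of EV day 7 and of EV day 3. Among the MIV nerves, omission of replicate 1 of day 3 gave 109, that of day 7 replicate 3 gave 126 and that of day 7 replicate 2 gave 698. The count was 975 with all 23 libraries in the fit. The change of the MIV effect between the days ran from -0.30 for Col1a2 to 0.04 for Col1a1, and none was called (edgeR adjusted p = 0.942 or higher).

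The day 7 differences leaned on single MIV libraries. Replicate 1 held the most and replicate 2 the least of all 6 genes in the MIV day 7 group, with Fn1 at 1.17 above and 1.17 below the group's mean log2 CPM and Postn at 0.73 above and 0.56 below it. Without replicate 2 the MIV against EV difference was 0.03 for Fn1 and -0.03 for Postn, and without replicate 1 it was -1.16 and -0.77, in no case called (edgeR adjusted p = 0.977, 0.988, 0.162 and 0.501). The muscle-enriched share given above was highest in replicate 3, which was neither the highest nor the lowest for any of the 6 genes. The part of muscle and vein RNA in these differences was not tested. With scaling by the genes outside the muscle-enriched set, the day 7 differences ran from -0.29 to 0.15, and none was called.

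**Figure D4:**
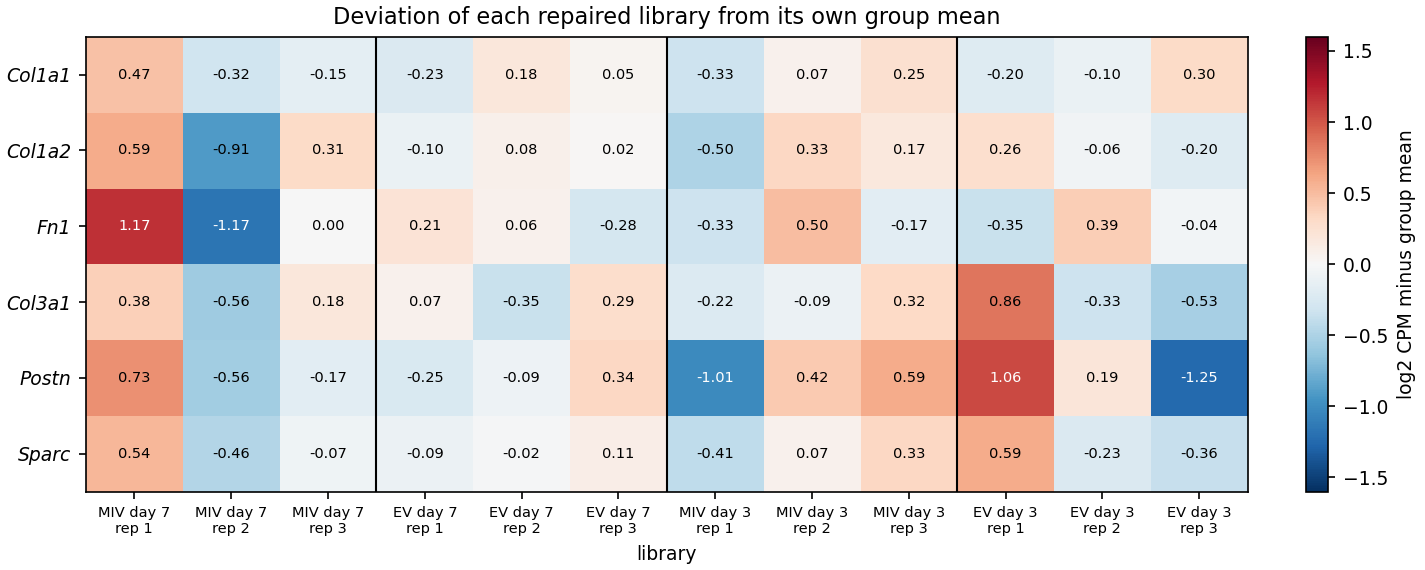
Each cell gives the log2 CPM of a gene in 1 repaired library minus the mean of that library's own group, red for above and blue for below. MIV day 7 replicate 1 is above and replicate 2 below its group for all 6 genes, and Postn in EV day 3 runs from 1.06 above to 1.25 below its group.

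Because a muscle-in-vein graft brings vein wall and muscle into the repair site, the repaired nerves were also set against these healthy tissues. Against vein, Col1a1, Fn1, Postn and Sparc rose in all 4 repaired groups, Col3a1 rose in 3 of them, and Col1a2 was not called in any. Called higher than in vein were 5 of 6 in MIV day 7 nerves, beside 25.5% of all genes, and 5 of 6 in EV day 7 nerves, beside 15%. In MIV day 3 nerves 4 of 6 were, beside 28.1%, and in EV day 3 nerves 5 of 6, beside 26.7%. None was called lower in these groups, where 20.4%, 13.5%, 25.8% and 25.6% of all genes were in the order MIV day 7, EV day 7, MIV day 3 and EV day 3. These 4 comparisons share the 3 vein libraries. Vein held 2158, 1996 and 1362 CPM of Col1a1, and the repaired groups held 5.82, 5.59, 6.19 and 6.10 times as much in MIV day 7, EV day 7, MIV day 3 and EV day 3 nerves. Vein held 2034, 2309.5 and 2770.4 CPM of Sparc, and the folds over it were 3.14, 4.05, 1.97 and 2.46 in the same order (edgeR adjusted p = 0.000274, 9.31e-05, 0.00995 and 0.00140). Vein held 776, 1366 and 1273 CPM of Col1a2, and the folds over it ran from 1.32 to 1.68 (edgeR adjusted p = 0.0867 to 0.424).

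Several calls against vein depended on single libraries. The Sparc call in MIV day 3 nerves was lost without MIV day 3 replicate 3 (edgeR adjusted p = 0.0525). The Fn1 call in MIV day 7 nerves was lost without MIV day 7 replicate 1 (edgeR adjusted p = 0.0667) and with the 2 groups alone (0.0587). The Col3a1 call in EV day 3 nerves was lost without EV day 3 replicate 1 (edgeR adjusted p = 0.182) or vein replicate 1, 2 or 3 (0.0713, 0.0508 and 0.0696). Col3a1 in MIV day 3 nerves, at 1.10 ± 0.51 (SE, edgeR adjusted p = 0.0727), was called with DESeq2 (adjusted p = 0.0435) and by edgeR with the 2 groups alone (0.00293). Col1a2 in MIV day 3 nerves was called without MIV day 3 replicate 1 (log2 fold change 0.96, edgeR adjusted p = 0.0481).

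Against healthy muscle 6 of 6 genes rose in MIV day 7 nerves, beside 34.7% of all genes, and 5 of 6 rose in MIV day 3 nerves, beside 33.5%. None was called lower, beside 31.3% and 33% of all genes. In MIV day 7 nerves the folds over muscle ran from 2.92 for Col1a2 to 21.0 for Postn. Without muscle replicate 2 the log2 fold change of Postn was 5.25, beside 4.39. Postn in MIV day 3 nerves was 2.499 times that in muscle and was not called (edgeR adjusted p = 0.106), and muscle held 88.6, 367 and 135 CPM. Without muscle replicate 2, the highest of these, the log2 fold change was 2.18 and was called (edgeR adjusted p = 0.0245). With scaling by the genes outside the muscle-enriched set, the median log2 difference over all genes against muscle was -0.04 in MIV day 7 and -0.17 in MIV day 3 nerves, beside 0.17 and 0.07 with the factors of all genes. The calls of the 6 genes were the same under both. The same scaling put the median against healthy nerve at 0.17 in MIV day 7 nerves, beside 0.05.

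The healthy tissues differed in Postn and Sparc. Muscle held 14.5 times as much Postn as vein and 31.8 times as much as nerve (log2 fold changes of 3.86 and 4.99, edgeR adjusted p = 0.000246 and 1.89e-06). Without muscle replicate 2 these log2 fold changes were 2.99 and 4.14, and without healthy nerve replicate 5 that against nerve was 5.71, all of them called. The muscle libraries had TMM factors of 0.410 to 0.421, which raise their CPM and bear on every comparison with muscle. As a mean share of all counts, Postn took 0.00822% in muscle, 0.00159% in vein and 0.000652% in nerve. Vein, at 12.8, 10.8 and 17.1 CPM of Postn, was not called against nerve (edgeR adjusted p = 0.161), and without healthy nerve replicate 5 it was (log2 fold change 1.91, edgeR adjusted p = 0.0131). Muscle held 1233, 1548 and 1406 CPM of Sparc. The log2 fold change of Sparc was -2.38 ± 0.30 (SE) in muscle against nerve and -1.61 ± 0.28 in vein against nerve (edgeR adjusted p = 6.89e-07 and 0.000147). Col1a1 and Fn1 also fell in muscle against nerve, with log2 fold changes of -1.24 ± 0.37 and -1.22 ± 0.44 (edgeR adjusted p = 0.00596 and 0.0198). The Fn1 call was lost without muscle replicate 1 or 3 (edgeR adjusted p = 0.0912 and 0.0644) and with scaling by the genes outside the muscle-enriched set (0.0877), and without muscle replicate 2 the change was -1.86.

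Of the 6 genes, 1 was higher and 3 were lower in muscle than in nerve, beside 31.5% and 35.8% of all genes. In muscle against vein 1 was higher and 2, Col1a2 and Sparc, were lower, beside 30.8% and 33.4%. In vein against nerve 0 were higher and 1 was lower, beside 18.9% and 21.4%. With scaling by the genes outside the muscle-enriched set, the median log2 difference over all genes in muscle was 0.15 against nerve and 0.13 against vein, beside -0.19 and -0.16 with the factors of all genes. The share of calls that were higher was then 57.4% against nerve and 58.1% against vein, beside 46.8% and 47.9%. Under that scaling Col1a2 and Sparc were not called in muscle against vein (edgeR adjusted p = 0.0790 and 0.209). Single libraries also decided both calls. Col1a2 was lost without muscle replicate 1 or vein replicate 2 (edgeR adjusted p = 0.0522 and 0.0505), and Sparc without muscle replicate 1 or 3 or vein replicate 2 or 3 (edgeR adjusted p = 0.0713, 0.0514, 0.0523 and 0.106). Omissions also added calls: without healthy nerve replicate 1, Col1a1 was lower in vein (edgeR adjusted p = 0.0354) and Col1a2 lower in muscle (0.0351) than in nerve, and without muscle replicate 2, Fn1 was lower in muscle than in vein (0.00688).

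The 6 genes together held 5.67% ± 2.22 of all counts in MIV day 7, 7.41% ± 0.966 in EV day 7, 3.87% ± 0.823 in MIV day 3 and 4.31% ± 0.937 in EV day 3 nerves (SD, n = 3 each). The share was 0.289% ± 0.0743 in muscle and 1.27% ± 0.0802 in vein (SD, n = 3 each) and 1.85% ± 0.825 in healthy nerve (SD, n = 5), where replicate 5 held 3.28% and the other replicates 1.16% to 1.70%. Col3a1 alone took 1.63% to 3.38% of the counts in MIV day 7 and 2.81% to 4.47% in EV day 7 nerves, against 0.209% to 1.21% in healthy nerve. In each day 7 library the largest parts of the total came from Col3a1, Col1a1 and Sparc.

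**Figure D5:**
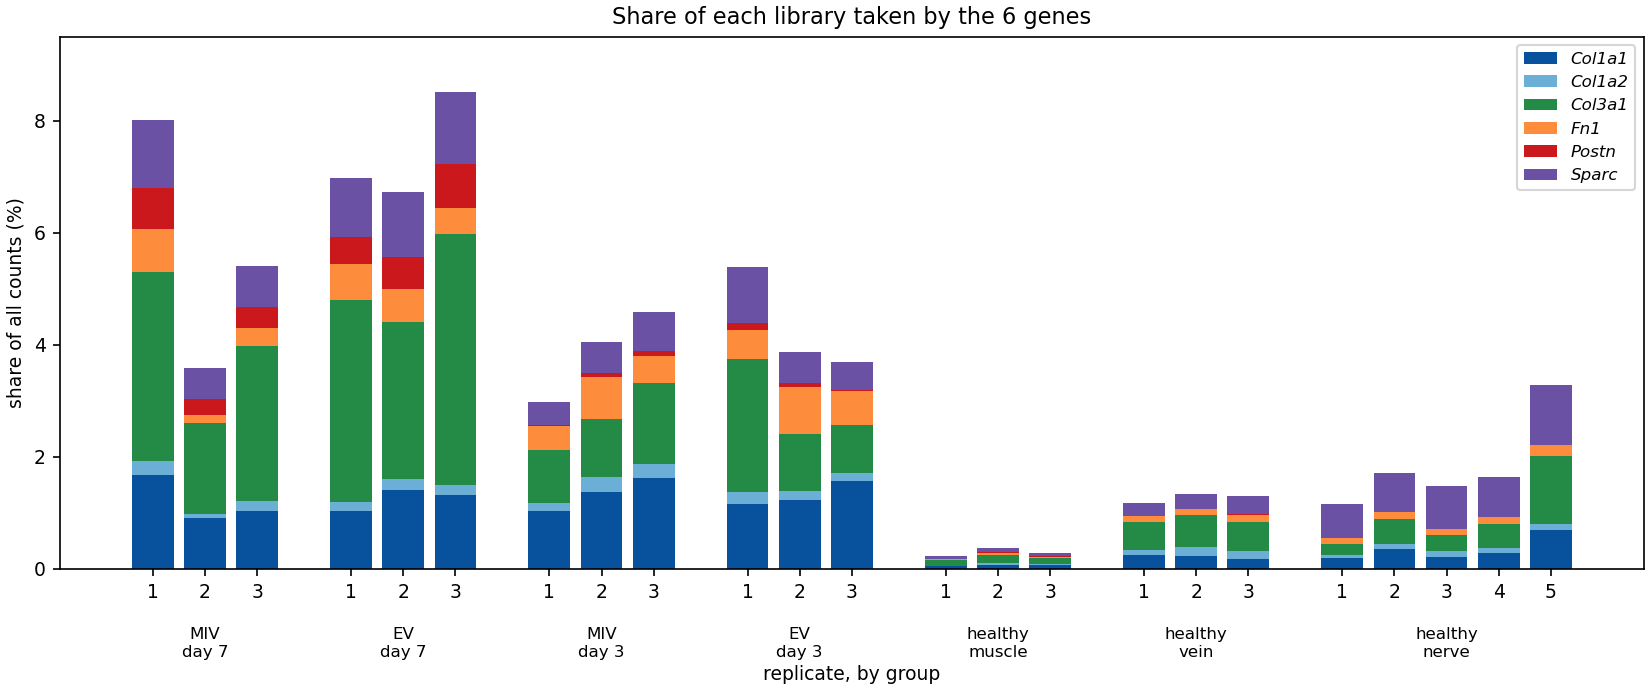
Stacked bars give the percent of all counts taken by each of the 6 genes in every library, ordered by group. The bars reach 8.01% in an MIV day 7 nerve and 8.51% in an EV day 7 nerve, against 0.368% in the highest healthy muscle and 3.28% in the highest healthy nerve.

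Ordered by mean CPM over the 7 groups, Col1a1 and Fn1 had the 4 repaired groups first, with no call between neighbours, then a step to healthy nerve that was called (edgeR adjusted p = 0.000582 and 0.00222), then vein and muscle, whose steps were not called. Col1a2 had the 4 repaired groups first and vein, nerve and muscle after them, and none of the 6 steps between neighbours was called. Col3a1 ran from EV day 7 through MIV day 7, EV day 3 and MIV day 3 to nerve, vein and muscle, also with no neighbouring pair called. Postn had the order EV day 7, MIV day 7, EV day 3, MIV day 3, muscle, vein and nerve, with called steps between MIV day 7 and EV day 3 (edgeR adjusted p = 0.00822) and between muscle and vein (adjusted p = 0.000246). Sparc ran from EV day 7 through MIV day 7, healthy nerve, EV day 3 and MIV day 3 to vein and muscle, with called steps between MIV day 3 and vein and between muscle and vein (edgeR adjusted p = 0.00995 and 0.0319).

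Among the 15954 genes tested, the one whose log2 CPM was most like that of a member over the 23 libraries was ENSRNOG00000007302, with a Pearson r of 0.966 to Fn1. ENSRNOG00000008749 followed with 0.960 to Fn1, and it was also among the 2 nearest to Col1a1 (r = 0.951). For no member was another member among its 2 nearest genes. These values are descriptions over libraries that share tissues and repair.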

How the data were processed

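RNA-seq was measured in 23 rat libraries. Per the labels' protocols, RNA was taken up in TRIzol and mRNA was selected with poly-T beads for non-directional libraries, so reads of a gene and an antisense partner cannot be told apart. CASAVA and HISAT2 are named in the submitters' processing notes, without versions; neither the counting tool nor a genome build or annotation is named in these sources. The authors deposited raw counts per Ensembl identifier, not normalized.

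The members and lists were chosen with earlier results of these data known. The 7 gene lists and the cell type markers planned by symbol could not be measured, since 0 of 32545 identifiers matched the reference table (assembly GRCr8, 47357 rows). The text names the 6 members and, of the 2 genes most correlated with each, those with the highest correlation.

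From the counts, edgeR 4.0.16 in R 4.3.3 was run with filterByExpr (minimum count 10, minimum total 15), TMM factors, a robust quasi-likelihood fit with 1 coefficient per group and Benjamini-Hochberg adjustment over all genes tested. Comparisons among repaired nerves used their 12 libraries, and those with healthy tissues all 23. Log2 CPM used a prior count of 2. DESeq2 1.42.0 was an alternative. Count ratios were compared with exact permutation tests. Only the edgeR code was tested on simulated counts, for MIV against EV at day 7 and EV day 7 against healthy nerve. Same-numbered MIV and EV libraries deviated together at day 7 (correlations over genes of 0.224, 0.201 and 0.176) but not at day 3 (-0.0913, 0.239 and -0.0149). Differently numbered libraries of different days reached 0.276 (MIV day 7 replicate 3 with MIV day 3 replicate 1). The day 7 values therefore do not establish pairing, and no label gives it. Fits with the number as a block are alternatives only. No library pair was identical.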

Additional observations from a re-analysis of the deposited data

Results flagged for a closer look

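In healthy nerve, the only group large enough to be tested for an outlying sample, replicate 5 stood apart from the other 4. It held 11754 CPM of Col3a1, where the gap to the next replicate was 0.774 of the group's range and the critical value of Dixon's test is 0.71. It held 1836 CPM of Fn1, with a gap of 0.793 of the range, and 3.28% of its counts came from the 6 genes, with a gap of 0.742. For a single quantity with normally distributed values, chance gives such a gap in about 1 in 20 groups. The CPM and the share were tested without taking logs, where high values stand out more. The CPM of the other genes and both log2 ratios were tested too, and none of them passed. The 3 flagged values come from the same library. The Col3a1 and Postn changes against healthy nerve are given above with and without replicate 5, and those of Fn1 only with it.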

How the results depend on the processing

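No direction of a called value reversed under the alternatives tried. The number of the 6 genes called for EV day 7 against EV day 3 was 1 with all 23 libraries in the fit and 1 with the 2 groups alone, beside 2, where 4533 and 3891 of all genes were called, beside 2947. For MIV day 7 against MIV day 3 it was 2 with DESeq2, beside 1. For healthy vein against nerve it was 2 with DESeq2, beside 1, and for muscle against vein it was 1 with TMM factors of the genes outside the muscle-enriched set and 5 with the 2 groups alone, beside 3. Without 1 library at a time the counts ran from 1 to 3 for EV day 7 against EV day 3, 1 to 2 for MIV day 7 against MIV day 3, 3 to 5 for MIV day 7 against nerve, 3 to 5 for EV day 3 against nerve, 1 to 2 for vein against nerve and 1 to 4 for muscle against vein. With counts of genes that were not muscle-enriched as the denominator, the 6 genes held 7.83% in MIV day 7, 8.82% in EV day 7, 4.79% in MIV day 3, 5.28% in EV day 3 nerves, 1.46% in muscle, 1.52% in vein and 2.19% in nerve. With the replicate number as a block, 0 of 6 genes were called for MIV against EV at either day or over both days. Of all genes the block within each day called 81 at day 7, 4 at day 3 and 145 over both days, the block over both days 0, 0 and 109, and the block at day 7 alone 43, beside 0, 0 and 232 without a block. Between healthy tissues, the block gave 2 genes for vein against nerve, beside 1, and 2 for muscle against nerve, beside 4, where 5390 and 9942 of all genes were called, beside 6435 and 10740. Without 1 library at a time the genes called over the whole table ran from 1390 to 4030 for EV and 804 to 3569 for MIV day 7 against day 3. The lowest value of the 6 genes rested on 33 counts (Postn in healthy nerve replicate 1), and the effect of depth was not tested. Groups of 3 libraries limit the size of difference that can be called.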
